A study of Homo sapiens with 8 samples.

Results

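DET1, COP1, DDB1, DDB2, CUL4A, CUL4B, DDA1, RBX1 and DTL encode a DET1-centred set of subunits and partners of the CUL4 ubiquitin ligases. Here their transcripts were followed in the Ago2-bound and total RNA of a Hodgkin lymphoma cell line. Members were taken by name: every array probe whose accession maps to 1 of these 9 genes was used (COP1 appears in older annotation as RFWD2). This gave 13 probes out of 41000 on the array, for 9 of the 16557 genes that could be named. All 13 probes were well above background in all 8 channels and passed the filters, as did 22470 probes of the array, which are called kept probes below.

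Cells were of the L1236 line, derived from a Hodgkin lymphoma, carrying either the empty retroviral vector pMSCV-PIG (EV) or that vector with a miR-155 sponge, an RNA whose repeated binding sites take up the microRNA in place of its natural targets. The EV cells keep their own miR-155, and both populations were transduced and sorted as GFP+ cells. From each population the total RNA (T) and the RNA precipitated with an antibody against Argonaute 2 (IP) were collected. Argonaute 2 (Ago2) is the protein that holds a microRNA and the transcripts paired with it. Each of the 4 RNA samples was labelled once with Cy3 and once with Cy5, and IP and T of one population shared an array in both dye orientations, so that 4 arrays gave 8 channels. There was 1 RNA sample per group and no second culture or precipitation. No difference could therefore be tested, no p-value is given, and ± is the SD over the 2 dye orientations (for IP/T and its change) or the 2 dyes (for sponge minus EV within T or IP). That SD covers labelling and hybridisation only. None of the 8 channels held a control precipitation without Ago2 antibody. IP/T is therefore not corrected for RNA that comes down without Ago2.

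CUL4 ligases are built on a cullin scaffold, CUL4A or CUL4B. The scaffold binds the RING protein RBX1 at one end, which recruits the ubiquitin-loaded enzyme, and the adaptor DDB1 at the other. DDB1 in turn holds an exchangeable substrate receptor such as DDB2, which recognises ultraviolet-damaged DNA, or DTL, which removes replication factors during S phase. DET1 joins DDB1 together with the small protein DDA1 and works with COP1, itself a RING-type ubiquitin ligase, in the degradation of transcription factors such as JUN. A microRNA pairs with transcripts mainly through its seed, and transcripts held by a loaded Ago2 come down with it.

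The microRNA targeted by the sponge is the reference for the sponge comparison and is shown for its seed. Mature human miR-155-5p lies on chromosome 21 (RefSeq, build GRCh38.p14, chr21:25573983-25574006, plus strand), and capitals mark its seed, bases 2 to 8. A transcript that pairs with the whole seed holds the letters AGCAUUA. Transcript sequences were not searched for it here.
hsa-miR-155-5p: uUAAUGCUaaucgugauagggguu

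The identity of the cells was checked against marker genes. All 6 Hodgkin cell markers (TNFRSF8, CCL17, IRF4, TRAF1, FSCN1 and MIR155HG, the miR-155 host transcript) were kept, against 6 of 8 B lineage markers, 0 of 5 T cell markers, 2 of 3 myeloid markers on the array (CD14 and CSF1R) and 0 of 3 stromal markers on the array. MS4A1 and CD22 of the B lineage and CD3D and CD3G of the T cell list were well above background in no channel. The other T cell markers, CD3E, CD2 and CD8A, were well above background in 7 or 8 channels on their best-detected probe and were left out because Cy3 and Cy5 disagreed, so these transcripts are not shown to be absent. MIR155HG itself read lower in sponge cells. Its sponge minus EV difference (log2) was -0.62 ± 0.12 in T and -0.38 ± 0.08 in IP, and the source of this difference was not tested. Between 54.1% (sponge T labelled with Cy5) and 65.7% of the spots in a channel were well above background.

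DET1 stood far from the other members. Its normalised signal in T (log2 scale, as for all signals below) was 9.68 in Cy3 and 9.72 in Cy5 in EV cells, and 9.78 in Cy3 and 9.53 in Cy5 in sponge cells. In IP the signal was 14.04 in Cy3 and 14.07 in Cy5 in EV cells, and 13.56 in Cy3 and 13.58 in Cy5 in sponge cells. Every IP channel was thus above every T channel, and both sponge IP channels were below both EV IP channels, whereas the T channels of the 2 populations overlapped. The ratio of IP to T (IP/T, given on the log2 scale throughout) was 4.36 ± 0.05 in EV cells, or 20.5-fold, and 3.91 ± 0.16 in sponge cells, or 15.1-fold. Counting DET1 itself, only 56 kept probes (0.249%) had an IP/T at or above its value in EV cells. In sponge cells the number was 103 (0.458%). With normexp background correction, a model of signal plus background, the EV ratio was 3.72 (with loess and Aquantile) or 3.75 (with quantile normalisation), more than 1.5 times lower.

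**Figure D1:**
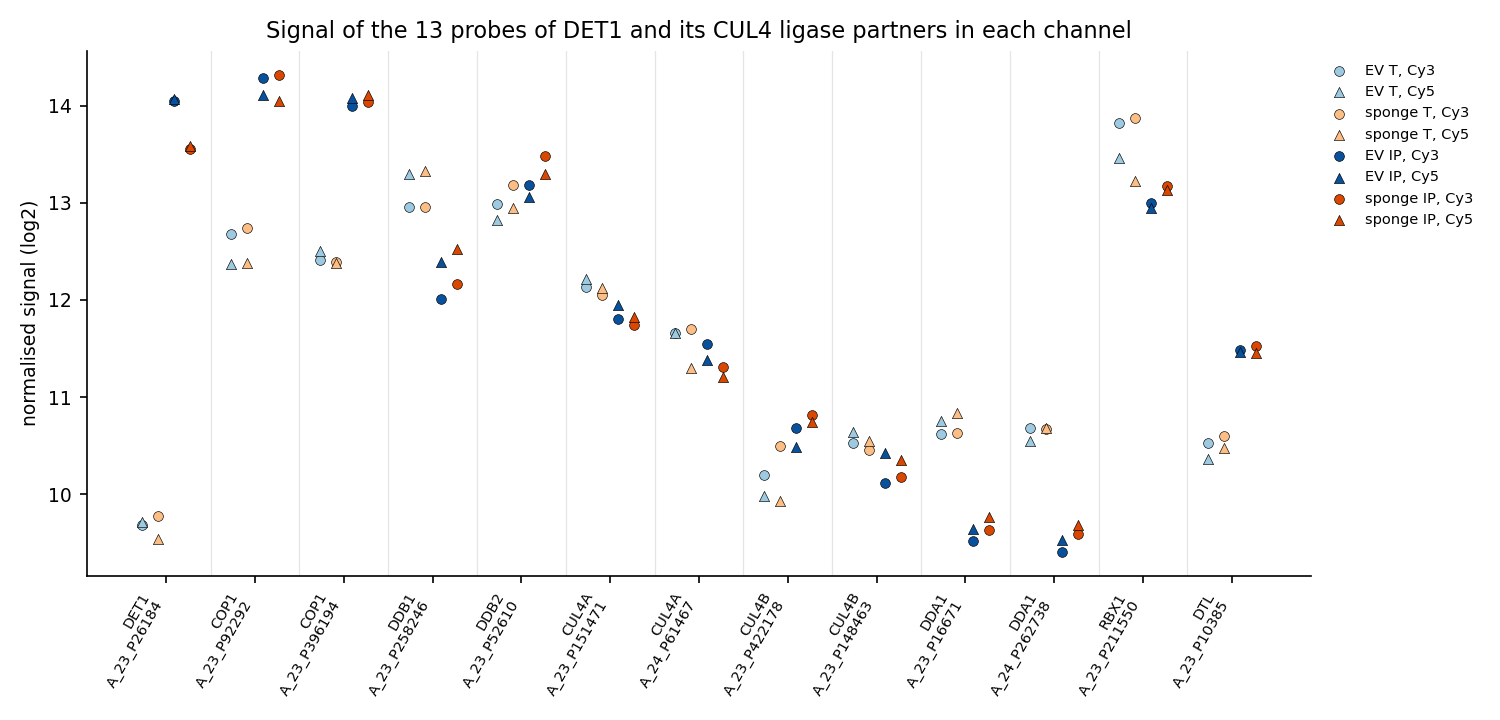
Normalised signal (y axis, log2) of the 13 probes (x axis) in the 8 channels, with total RNA in pale and IP RNA in dark symbols, EV cells in blue, sponge cells in orange, Cy3 as circles and Cy5 as triangles. Heights may be compared within a probe, not between probes. For DET1 the IP channels sit at 13.56 to 14.07, above T channels at 9.53 to 9.78.

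COP1, the ubiquitin ligase that works with DET1, was the next most Ago2-bound member on both of its probes. With probe A_23_P92292 the T signal was 12.68 and 12.37 (Cy3 and Cy5) in EV cells and 12.74 and 12.38 in sponge cells, against 14.28 and 14.10 in EV IP and 14.32 and 14.04 in sponge IP. With A_23_P396194 the T signal was 12.41 and 12.50 in EV cells and 12.39 and 12.38 in sponge cells, against 14.00 and 14.08 in EV IP and 14.04 and 14.11 in sponge IP. On both probes all IP channels were above all T channels, and EV and sponge channels overlapped within each fraction except for the T channels of the second probe, where both sponge values were the lower ones. IP/T was 1.67 ± 0.34 (3.17-fold) and 1.58 ± 0.13 in EV cells, and 1.62 ± 0.45 and 1.69 ± 0.04 in sponge cells. The 2 probes differed by less than the larger of their SDs in both populations.

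DDA1, which binds DET1 and DDB1, lay on the opposite side. With probe A_23_P16671 its signal in T was 10.62 and 10.76 (Cy3 and Cy5) in EV cells and 10.63 and 10.84 in sponge cells, and in IP 9.52 and 9.64 in EV cells and 9.64 and 9.77 in sponge cells. With A_24_P262738 the values were 10.68 and 10.55 in EV T, 10.67 and 10.69 in sponge T, 9.41 and 9.53 in EV IP and 9.59 and 9.68 in sponge IP. All IP channels were below all T channels on both probes. IP/T was -1.11 ± 0.18 and -1.15 ± 0.01 in EV cells, a depletion of 2.16-fold and 2.22-fold, and -1.03 ± 0.24 and -1.04 ± 0.08 in sponge cells. The depletion stood close to the 2-fold limit. With background correction by normexp, the count of members depleted at least 2-fold was 0 in both populations.

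DDB1, the adaptor that DET1 and all DCAF receptors share, also gave less signal in IP than in T. Its T signal was 12.95 and 13.30 in EV cells and 12.96 and 13.32 in sponge cells (Cy3 and Cy5), and its IP signal was 12.01 and 12.39 in EV cells and 12.17 and 12.53 in sponge cells. Cy5 read higher than Cy3 in all 4 RNA samples, and within each dye the IP value was below the T value. In EV cells IP/T was -0.92 ± 0.51, with orientation values from -1.29 to -0.56, and the sponge value was -0.79 ± 0.51.

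The scaffolds CUL4A and CUL4B lay near the middle of the range of IP/T. For CUL4A, probe A_23_P151471 gave 12.13 and 12.22 (Cy3 and Cy5) in EV T, 12.05 and 12.13 in sponge T, 11.80 and 11.95 in EV IP and 11.74 and 11.82 in sponge IP. Probe A_24_P61467 gave 11.66 and 11.66 in EV T, 11.70 and 11.30 in sponge T, 11.54 and 11.38 in EV IP and 11.31 and 11.20 in sponge IP. IP channels were below T channels on the first probe, and on the second the sponge T value in Cy5 reached into the IP values. The 2 probes gave an EV IP/T of -0.30 ± 0.16 and -0.20 ± 0.12 and a sponge IP/T of -0.31 ± 0.12 and -0.24 ± 0.35.

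The 2 probes of CUL4B, which differs from CUL4A in a longer amino-terminal part, disagreed. A_23_P422178 read 10.20 and 9.98 (Cy3 and Cy5) in EV T, 10.50 and 9.93 in sponge T, 10.68 and 10.48 in EV IP and 10.82 and 10.74 in sponge IP. A_23_P148463 read 10.52 and 10.64 in EV T, 10.46 and 10.55 in sponge T, 10.12 and 10.42 in EV IP and 10.18 and 10.35 in sponge IP. The first probe was higher in IP within each dye and the second lower. The EV IP/T was 0.49 ± 0.29 against -0.31 ± 0.30 and the sponge IP/T 0.57 ± 0.46 against -0.24 ± 0.19. That gap, 0.81 in both populations, exceeded the larger SD of the pair (0.30 and 0.46), so no single IP/T is given for CUL4B. Which CUL4B transcripts each probe detects was not examined.

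**Figure D2:**
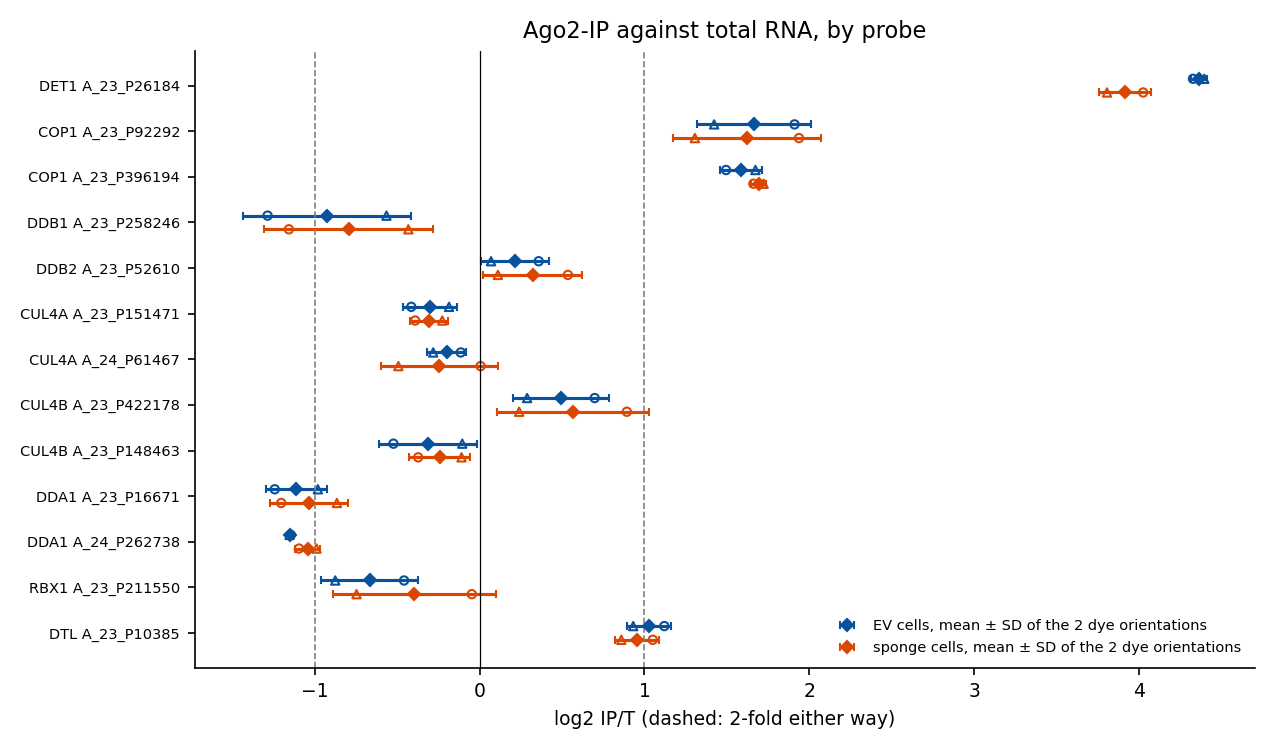
IP/T (x axis, log2) of each probe (y axis) in EV cells (blue) and sponge cells (orange). Diamonds and bars give the mean ± SD of the 2 dye orientations, open triangles the arrays with IP in Cy5 and open circles those with IP in Cy3. DET1 at 4.36 and 3.91 is separated from all other probes, and the 2 CUL4B probes lie on opposite sides of 0.

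RBX1, the RING subunit of the cullin ligases, had T signals of 13.82 and 13.46 (Cy3 and Cy5) in EV cells and 13.88 and 13.22 in sponge cells, and IP signals of 13.00 and 12.94 in EV cells and 13.18 and 13.13 in sponge cells. All 4 IP values were below all 4 T values. The dyes differed most in sponge T, by 1.57-fold, and the RBX1 probe was the 1 member probe lost when Cy3 and Cy5 had to lie within 1.5-fold. The EV IP/T was -0.67 ± 0.30 and the sponge IP/T -0.40 ± 0.49, with sponge orientations of -0.75 and -0.05.

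DDB2, the DNA damage receptor, showed little difference between fractions. Its signal was 12.99 and 12.83 (Cy3 and Cy5) in EV T, 13.19 and 12.94 in sponge T, 13.18 and 13.05 in EV IP and 13.48 and 13.30 in sponge IP. Within each dye IP was above T, and sponge was above EV in both fractions. Its IP/T of 0.21 ± 0.20 in EV cells compared with 0.32 ± 0.30 in sponge cells.

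DTL, the receptor that acts in S phase, lay at the 2-fold limit. The array carries its probe in 10 spots, whose averages were 10.53 and 10.36 (Cy3 and Cy5) in EV T, 10.60 and 10.47 in sponge T, 11.48 and 11.46 in EV IP and 11.52 and 11.46 in sponge IP. IP channels were above T channels in both populations, and EV and sponge overlapped. This made an IP/T of 1.03 ± 0.13 (2.04-fold) in EV and 0.95 ± 0.13 (1.94-fold) in sponge cells. Over the 10 spots of an array the SD of IP/T was 0.0594 to 0.103, and both ratios lay within their SD of the 2-fold limit. With normexp the EV ratio was 0.88 (with loess and Aquantile) and 0.76 (with quantile normalisation), below that limit.

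Counted at the brightest kept probe of each gene, 3 of 9 members (DET1, COP1 and DTL) were enriched at least 2-fold in EV IP, against 17.5% of all kept probes. In sponge IP 2 of 9 (DET1 and COP1) were enriched, against 17.5% of all kept probes. DDA1 alone was depleted at least 2-fold, in EV IP (background 19.0%) and in sponge IP (background 17.8%). With so few genes, 3 and 1 of 9 are near these shares. The members' median IP/T hung on the choice between the disagreeing CUL4B probes. It was 0.21 with the brighter and -0.30 with the dimmer one in EV cells, beside -0.16 over all kept probes, and 0.32 and -0.24 in sponge cells, beside -0.13. Without DET1 the EV values ran from -1.11 to 1.67.

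**Figure D3:**
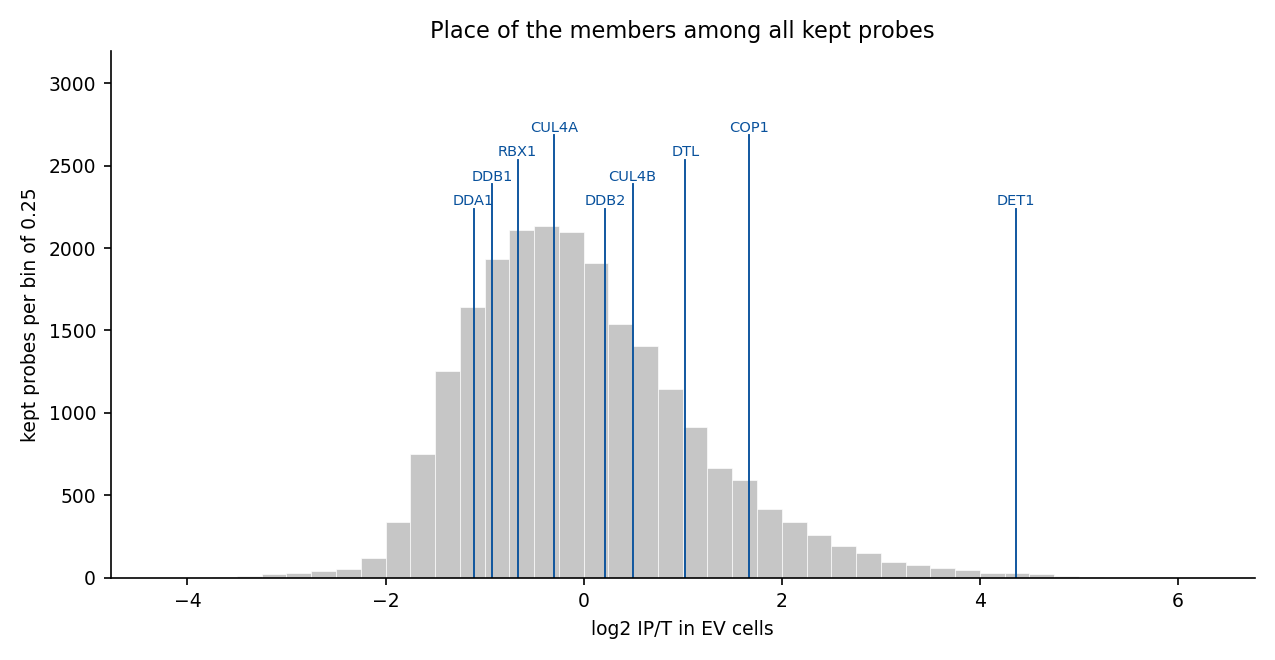
Number of kept probes (y axis) by IP/T in EV cells (x axis, log2, bins of 0.25), with a line at the brightest probe of each member. DET1 at 4.36 lies in the far right tail, COP1 at 1.67 and DTL at 1.03 on the right flank and DDA1 at -1.11 on the left flank.

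The profile of DET1 over the 8 channels was set against 15625 other kept probes with a gene name, after each profile was centred on its own mean. The closest, by root mean square distance on the log2 scale, were ZNF85 (0.104), GPCPD1 (0.112), MTMR9 (0.113), ZNF280A (0.119) and ZNF678 (0.121). Their IP/T in EV cells was between 4.10 and 4.48, and no other member was among them. Likeness here rests mostly on the large step between fractions, which all 4 arrays share.

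The sponge comparison asks which transcripts are less bound to Ago2 in cells that carry the sponge. How much miR-155 the sponge occupied was not measured here. For this line the paper proposes that uptake was incomplete, probably because miR-155 is so abundant. Level values therefore do not show what a full block of miR-155 would do. None of the 9 members differed at least 2-fold between sponge and EV cells in T (background 0.409%) or in IP (background 0.151%). In such bulk RNA, fewer cells holding a transcript and less of it per cell cannot be told apart. DET1 was the 1 member with a lower IP/T in sponge cells by at least 1.2-fold in both orientations, a step that 4.20% of all kept probes showed. Its change in IP/T was -0.59 on the arrays that carried IP in Cy5 and -0.30 on the swapped arrays, -0.45 ± 0.20 on average, or 1.36-fold lower.

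For DET1 the lower ratio came with a lower IP signal, while T was within its dye spread. Sponge minus EV in IP was -0.49 in Cy3 and -0.49 in Cy5, or 1.40-fold lower. With DET1 itself counted, 298 kept probes had a value in IP at or below that of DET1. In T, sponge minus EV for DET1 was 0.10 in Cy3 and -0.18 in Cy5 (-0.04 ± 0.20), so the 2 dyes differed in sign. DET1 was also the 1 member whose IP signal was lower by at least 1.2-fold in both dyes, against 5.05% of all kept probes. The spread between the orientations of its change in IP/T matches the spread between dyes in T.

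Probes with strong Ago2 enrichment had lower IP values in sponge cells in general, so DET1 was also placed among the 382 kept probes with an IP/T of at least 8-fold in EV cells. Of these, 310 had a lower IP/T in sponge cells, with a median change of -0.18, and 314 had a lower IP signal, with a median of -0.18. A lower IP/T by at least 1.2-fold in both orientations was found for 18.3% of them, and an IP signal lower by that much in both dyes in 20.4%. With DET1 itself counted, 42 of the 382 (11.0%) had a change in IP/T as low as its own or lower. For the difference in IP the number was 15 (3.93%). All 382 were selected on the EV ratio. The EV IP signal enters that ratio, the change in IP/T and the difference in IP alike, so lower sponge values of both kinds are partly built into the selection, and the shares describe these probes only.

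COP1 gave no such shift. Its change in IP/T was -0.04 ± 0.10 and 0.11 ± 0.08 on its 2 probes, of opposite sign, with -0.01 ± 0.07 and 0.03 ± 0.01 in IP and 0.03 ± 0.03 and -0.07 ± 0.07 in T. DTL was as flat, with a change in IP/T of -0.07 ± 0.00, 0.02 ± 0.03 in IP and 0.09 ± 0.03 in T.

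Several members without enrichment had slightly more IP signal in sponge cells, in both dyes. The difference was 0.27 ± 0.04 for DDB2, 0.18 ± 0.01 for RBX1, 0.15 ± 0.01 for DDB1, and 0.12 ± 0.00 and 0.17 ± 0.02 for the DDA1 probes. DDB2 was also higher in T, by 0.16 ± 0.06. The largest of these, that of DDB2, is 1.21-fold. Kept probes of like IP/T in EV cells had a median difference in IP of 0.10 (IP/T in a bin centred on -1.25) and 0.06 (centred on -0.75), the bins of DDA1, DDB1 and RBX1. In the bin of DDB2, centred on 0.25, the median was -0.01. The middle 80% of that bin ended at 0.22, below the value of DDB2. Among all kept probes 9.44% had a difference in IP at or above that of DDB2. CUL4A was lower in IP, by -0.10 ± 0.04 and -0.21 ± 0.04, and for CUL4B the probes gave 0.20 ± 0.08 and -0.01 ± 0.09.

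Over the 9 members the median difference in IP was 0.12, with 6 of 9 above 0, and with the dimmer CUL4B probe 0.02, with 5 of 9 above 0, beside 0.01 over all kept probes. In T the median was 0.03 (0.01 with the dimmer CUL4B probe), beside -0.02. The members' changes in IP/T ran from -0.45 for DET1 to 0.27 ± 0.20 for RBX1, whose orientations gave 0.13 and 0.41.

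**Figure D4:**
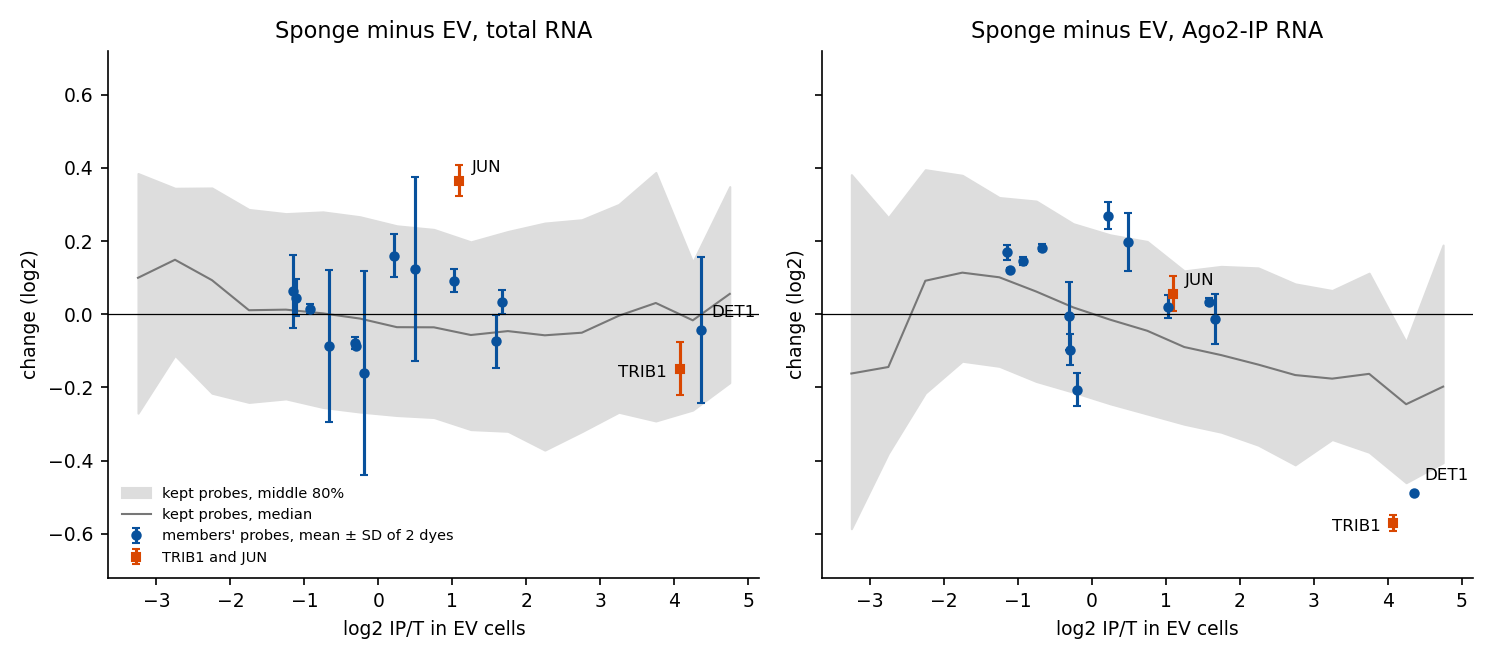
Sponge minus EV (y axis, log2) in total RNA (left) and in IP RNA (right) against IP/T in EV cells (x axis, log2), with members' probes in blue, TRIB1 and JUN in orange, bars as the SD over the 2 dyes, and the grey band as the middle 80% of kept probes in bins of 0.5 that hold at least 20 probes. DET1 (-0.49) and TRIB1 (-0.57) lie below the band in IP and inside it in T. DDB2 (0.27) lies above the band in IP.

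Around the members, 7 lists of CUL4 and COP1 pathway genes were followed, 109 genes of which 95 had a kept probe. Each list gene is given at its brightest kept probe, and the values of its other probes are not reported. Of these 95, 21 (22.1%) were enriched at least 2-fold in EV IP and 13 (13.7%) depleted, near the shares over all kept probes. Those shares, 17.5% enriched and 19.0% depleted, are the background for the counts of each list below. None differed at least 2-fold between sponge and EV cells in T or IP. Only TRIB1 and JUN had a lower IP/T in sponge cells by at least 1.2-fold in both orientations. These 2 of 95 are no larger a share than the 4.20% of all kept probes. An IP signal lower by at least 1.2-fold in both dyes was found for 4 of 95 (TRIB1, DCUN1D3, KMT5A and WSB1), beside the 5.05% of all kept probes.

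TRIB1 and JUN both belong to the list of COP1 and DET1 substrates and adaptors. In it 5 of 12 kept genes were enriched in EV IP, against 17.5% of all kept probes, and 1 was depleted. The count of enriched genes ran from 3 to 6 over the processing alternatives. The list's median IP/T was 0.71, beside -0.16 over all kept probes. TRIB1, the pseudokinase that brings COP1 to its substrates, came closest to DET1 in IP/T. It had 2 probes, of which 1 was kept. The EV IP/T of TRIB1 was 4.07 ± 0.20 and the sponge IP/T 3.65 ± 0.25, which makes a change of -0.42 ± 0.05. As for DET1, the IP signal was lower in sponge cells in both dyes (-0.55 and -0.59), with -0.15 ± 0.07 in T. JUN, the transcription factor that DET1 and COP1 target, went from an EV IP/T of 1.09 ± 0.02 to a sponge IP/T of 0.78 ± 0.01, a change of -0.31 ± 0.01. In contrast to TRIB1 its IP signal was nearly level, at 0.06 ± 0.05, and its T signal was higher in sponge cells by 0.36 ± 0.04. JUNB, a JUN relative, was enriched at 1.91 ± 0.04 with a change of -0.27 ± 0.02. As for JUN, its IP signal was nearly level (-0.04 ± 0.05) and its T signal was higher in sponge cells (0.23 ± 0.03). TRIB2, a TRIB1 relative, was enriched at 1.24 ± 0.20. CEBPA, a transcription factor degraded through TRIB proteins and COP1, was depleted in EV IP at -2.15 ± 0.24 on the 1 of its 3 probes that was kept. ETV5, the remaining one of the 5, was not well above background in EV T, and no fold is given for it.

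The list of known or proposed CUL4 substrate receptors includes the DCAF proteins, which share DDB1 with DET1. In it 5 of 35 kept genes were enriched in EV IP and 4 depleted, with a median IP/T of -0.14. WDR5B (3.22 ± 0.22), BRWD1 (2.27 ± 0.07), DCAF10 (1.97 ± 0.16) and BRWD3 (1.96 ± 0.23) were highest, all below DET1. NLE1 (-1.65 ± 0.15), DCAF11 (-1.16 ± 0.21) and GRWD1 (-1.02 ± 0.17) were among the lowest. None of the 35 met the 1.2-fold criterion for IP/T. WSB1, named after its values were seen, had an IP signal lower by at least 1.2-fold in both dyes (-0.29 ± 0.03).

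The remaining cullins and RNF7 included 2 of 7 enriched genes, RNF7 (1.84 ± 0.08), the RING partner of CUL5, and CUL5 itself (1.32 ± 0.41). CUL9 was depleted (-1.89 ± 0.15), and the list median was 0.75. In the NEDD8 pathway, which activates cullins, 3 of 13 genes were enriched and 2 depleted. The enriched ones, DCUN1D4 (2.94 ± 0.11), DCUN1D3 (2.58 ± 0.32) and DCUN1D1 (1.39 ± 0.19), all encode factors that promote attachment of NEDD8 to cullins, as do DCUN1D5 (-0.92 ± 0.33) and DCUN1D2 (0.11 ± 0.19), which were not enriched and were named after their values were seen. The depleted ones, UBE2M (-1.78 ± 0.04) and UBE2F (-1.20 ± 0.03), are the NEDD8-conjugating enzymes. DCUN1D3 had an IP signal lower by 0.40 ± 0.07 in sponge cells, past 1.2-fold in both dyes.

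In the COP9 signalosome, which removes NEDD8 from cullins, 3 of 9 genes were enriched in EV IP, against 17.5% of all kept probes. They were COPS2 (1.70 ± 0.17), COPS7A (1.18 ± 0.19) and COPS7B (1.16 ± 0.24). Depleted were 2, against 19.0%, namely GPS1 (-1.43 ± 0.05) and the catalytic subunit COPS5 (-1.15 ± 0.19). With so few genes, both counts are near these shares. Of the 9 ubiquitin-conjugating enzymes used with CUL4 or DET1, 0 passed 2-fold in either direction, and the median IP/T was 0.26. Of the 10 DTL and DDB2 substrates and cofactors, KMT5A (2.45 ± 0.01), CDKN1A (1.78 ± 0.13) and TDG (1.14 ± 0.21) were enriched in EV IP. CDT1 (-1.33 ± 0.40) and XPC (-1.30 ± 0.01) were among the depleted genes. CDKN1A, the cell cycle inhibitor p21 that DTL removes, was higher in sponge cells in T by 0.52 ± 0.12 and in IP by 0.52 ± 0.03, so that its IP/T was level.

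The normexp corrections lowered several of these list values. In the order loess with Aquantile, then quantile, the EV IP/T of WDR5B was 1.53 and 1.40, below that of BRWD1 (2.12 and 2.10). CUL5 (0.99 and 0.78), DCUN1D1 (0.89 and 0.70), COPS7B (0.54 and 0.46) and TRIB2 (0.66 and 0.53) were then short of 2-fold enrichment, as was ETV5. GRWD1 (-0.76 and -0.87) and XPC (-0.56 and -0.54) were short of 2-fold depletion in both, and DCAF11, UBE2F, GPS1 and COPS5 in the first. DCUN1D4 (2.12 and 1.97), BRWD3 (1.40 and 1.30) and CUL9 (-1.24 and -1.20) stayed past 2-fold. TRIB1 (3.74 and 3.81) then lay slightly above DET1 (3.72 and 3.75).

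**Figure D5:**
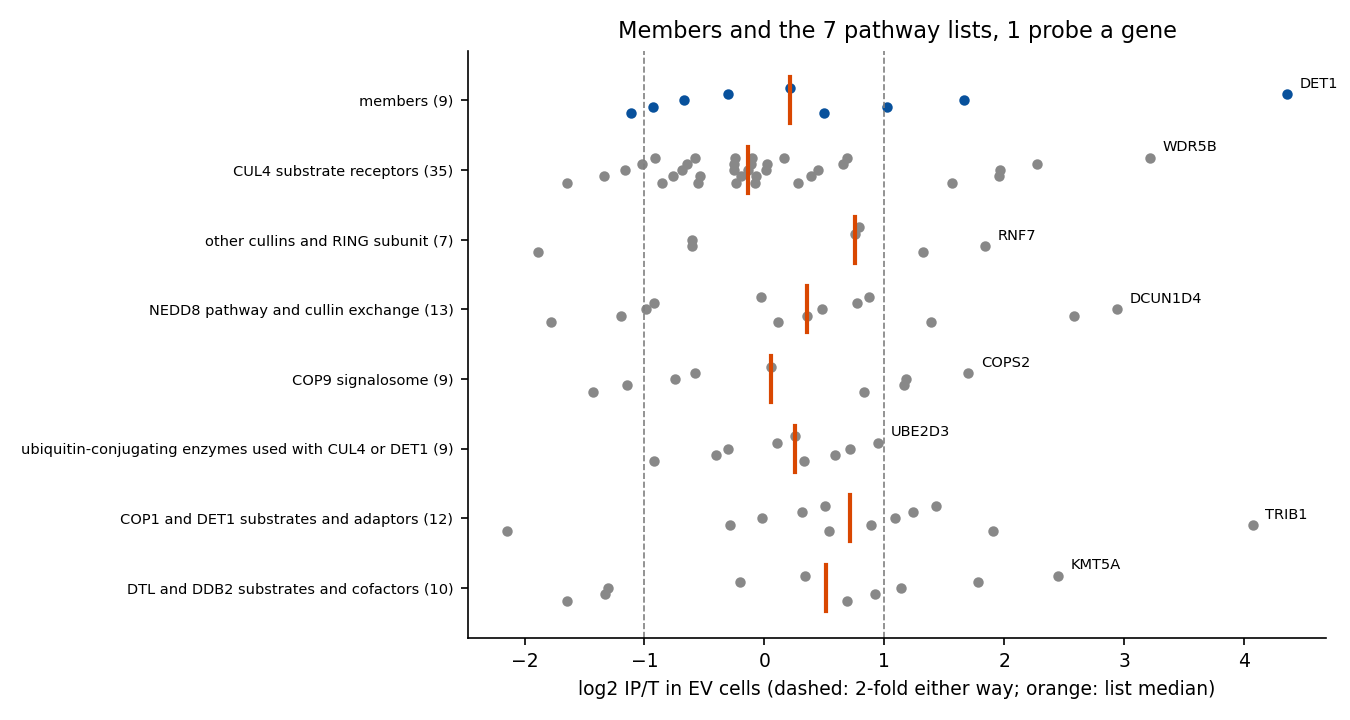
IP/T in EV cells (x axis, log2) of the members (blue) and of the genes of 7 pathway lists (grey), 1 probe a gene, with the number of kept genes in brackets, the list median in orange and the highest gene of each list named. DET1 (4.36) and TRIB1 (4.07) are the highest of all genes shown, and dots are spread vertically for display only.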

How the data were processed

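The deposited scanner files hold spot intensity values of 44k Agilent two-colour arrays, which the authors extracted with Agilent Feature Extraction (10.5.1.1 per the labels, 10.7.3.1 per the file headers), with background subtraction and dye correction. The authors' deposited table of normalised log2 values (22282 probes, 13 of them members' probes) was used as an alternative. Each array was deposited under both of its samples and was used once.

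Log2 processed signals, without control and outlier spots, were averaged over spots and quantile normalised over 8 channels with limma 3.58.1. A probe was kept if well above background in at least 4 of 8 channels and within 2-fold between Cy3 and Cy5 in each RNA sample. No spot was saturated. Probe accessions were named through RefSeq GRCh38.p14, and 69.5% of kept probes received a symbol. The array annotation follows another build, so no gene coordinates are given.

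Each gene was counted at the brightest of its kept probes. List genes were named when highest or lowest in EV IP/T past 2-fold (up to 4 each way), or with the largest falls past 1.2-fold. Some genes named by this rule are not reported here. Members and lists were chosen with earlier results of these data known. The study followed up DET1 for its enrichment in Burkitt lymphoma cells that overexpressed miR-155. The paper also reported DET1 as enriched past 2-fold in EV L1236 cells, so its enrichment here repeats a published result. Differences between populations may reflect cultures, precipitations or arrays, which cannot be told apart from the sponge. The scripts were tested on simulated data. Normexp alternatives used median spot signals, since the files hold no mean.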

Additional observations from a re-analysis of the deposited data

How the results depend on the processing

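For DET1, the EV and sponge IP/T were 3.75 and 3.32 with normexp (offset 50) and quantile normalisation, and 3.72 and 3.29 with normexp, loess and Aquantile. Sponge minus EV in IP was then -0.52 and -0.38, and -0.52 with scaling to the 75th percentile. Over all 13 alternatives the change in IP/T of DET1 ran from -0.59 to -0.30, and the difference in T from -0.18 to 0.10, with another sign in 3. Members depleted at least 2-fold numbered 0 in EV cells and 0 in sponge cells under both normexp settings and with IP in Cy5 alone, and 2 and 2 with IP in Cy3 alone. With 1 dye left out, that number was 1 to 1 in EV cells and 0 to 1 in sponge cells. Enriched members numbered 2 to 3 in each population, and members with the lower IP/T numbered 1, in all 14 alternatives. TRIB1 changed by -0.49 to -0.35 in IP/T over 13 alternatives, and JUN by -0.37 to -0.24. Of the other 12 member probes, the difference in T took another sign in at least 1 alternative for 7, the change in IP/T for 6 and the difference in IP for 3. The dimmer CUL4B probe, tried after seeing the data, turned the members' median IP/T below 0 (-0.30 in EV cells and -0.24 in sponge cells). No paired analysis was possible because each group holds 1 RNA sample and the results come from no test. The number of arrays limits the precision.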
